A study of Mus musculus with 4 samples.

Results

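Genes of blood coagulation and fibrinolysis were examined in liver RNA of mice with and without Nrg4, the gene of a secreted growth factor of the epidermal growth factor family. The members were taken from a list of 32 genes, each measured by a probe set that the platform annotation pairs with that gene alone. Of these, 30 had such a probe set, out of 22180 genes measured in this way in the series. Klkb1 (plasma prekallikrein) was left out because its probe set is also assigned to its neighbour Cyp4v3, and Cpb2 (a carboxypeptidase that protects fibrin) was not analysed here. Each of the 30 genes had 1 such probe set, and all 30 passed the filter on dim signal, so every one was tested.

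Wild type (WT) mice and Nrg4 knockout (KO) mice, all male, ate a steatohepatitis (NASH) diet, which makes the liver fatty and inflamed, from 3 months of age for 20 weeks, and liver was taken from fed animals. Both groups had this diet, so the comparison shows genotype on the diet and not the effect of the diet. Liver RNA was pooled, and 2 pools of each genotype were put on 4 Affymetrix Mouse Gene ST 2.1 arrays. The labels call the pools biological replicates, while neither the number of animals in a pool nor the design of the knockout allele is given in the sources used here. Values are on a log2 scale whose zero point is unknown, so that a difference of 1 between KO and WT is a doubling, and levels are not compared between genes. P-values and standard errors (SE) combine the spread between a gene's pools with a variance shared by all tested genes. They speak for these pools, and the number of arrays limits their precision.

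Hepatocytes make most proteins of the clotting cascade and secrete them into plasma as inactive precursors. Tissue factor on cells outside the bloodstream starts the cascade together with factor VII. A second entry runs from factor XII, prekallikrein and kininogen to factor XI, and both lead through factors IX, VIII, X and V to thrombin, which cuts fibrinogen into fibrin. Antithrombin, the protein C system and tissue factor pathway inhibitor restrain the cascade, and plasmin, released from plasminogen by its activators, dissolves the clot. Several parts of the system are not hepatocyte products and come mainly from endothelial, stromal, epithelial or myeloid cells. These are tissue factor, factor VIII, the A chain of factor XIII, the plasminogen activators and the urokinase receptor. Thrombomodulin, the endothelial protein C receptor and tissue factor pathway inhibitor belong here too.

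Nrg4 itself was at 2.54 and 2.30 in the WT pools and at 0.93 in both KO pools, which is the direction the genotype labels give. The value in KO pool 1 was shared by 301 probe sets of that array, a tie whose origin was not tested. All 13 measured hepatocyte markers passed the filter on dim signal. Over all 12458 tested genes, limma called 6 (0.0482%) at an adjusted p under 0.05, and the median difference was 0.01.

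No coagulation or fibrinolysis gene was called (0 of 30 by limma with Benjamini-Hochberg adjustment over all tested genes, adjusted p from 0.233 to 0.997). At an unadjusted p under 0.05 there were 3: Plat on the higher side in KO, and F11 and Kng1 on the lower side. The shares of all tested genes at that level were 6.37% on the higher side and 3.92% on the lower. The sign of the difference ran mostly with the cell type that makes the product, a description that was not tested. Of the 21 measured hepatocyte plasma proteins, 17 were below WT and 4 above, with a median difference of -0.21, while 48.4% of all tested genes were below WT. Of the 9 genes made by other cells, 7 were above WT and 2 below, with a median of 0.28. Those 2 were Procr and Thbd. Without 1 pool, 15 to 18 of the 21 hepatocyte genes and 1 to 3 of the 9 others were below WT, and the median of the others was 0.48 without KO pool 1. Of all tested genes, 45.4% to 51.5% were then below WT.

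**Figure D1:**
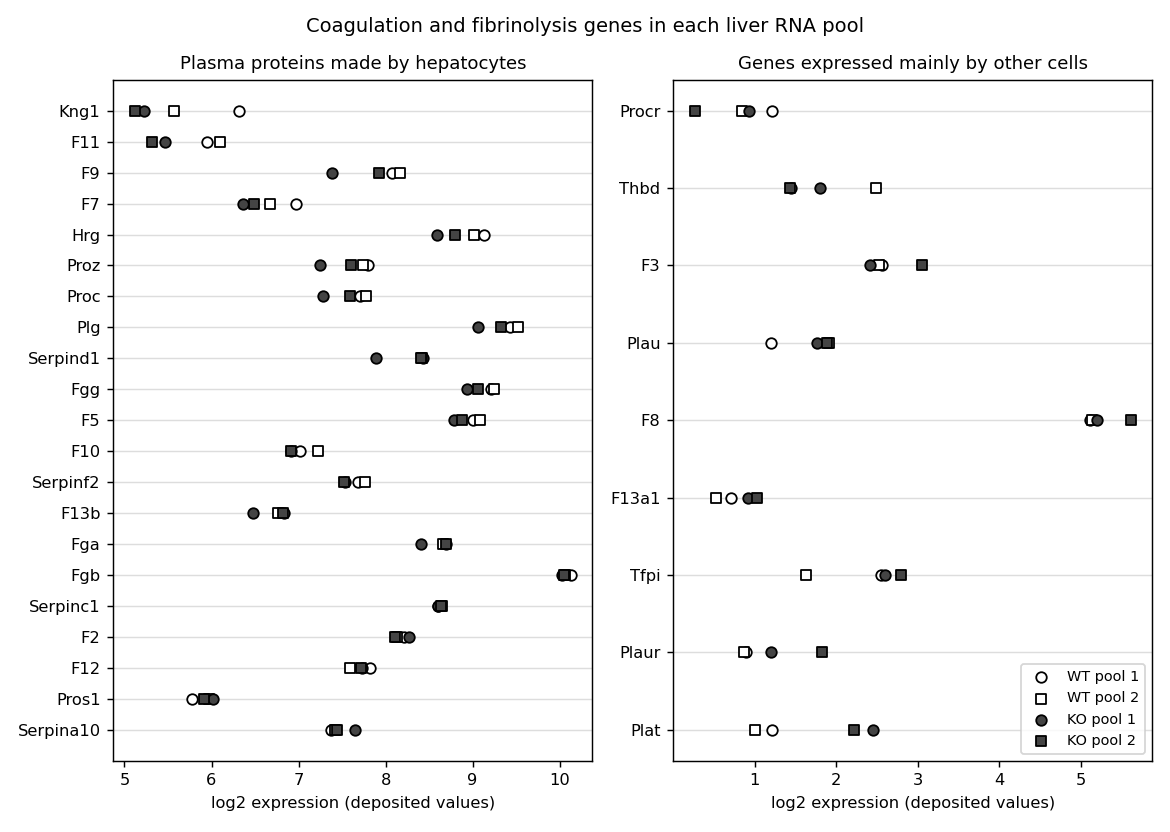
Log2 expression of each gene (horizontal axis) in each of the 4 pools (WT open, KO filled, circles pool 1, squares pool 2), for hepatocyte plasma proteins on the left and genes made by other cells on the right, ordered by KO minus WT. The KO symbols lie to the left of the WT symbols in 14 of the 21 hepatocyte genes and to the right in 5 of the 9 others.

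Both KO pools lay below both WT pools in 14 of the 21 hepatocyte genes, and above both in 1 (Serpina10). Over all tested genes these shares were 19.5% and 22.2%. Bright probe sets lay lower in KO in general: among the 1782 genes at least as bright as the dimmest hepatocyte member, 64.7% were below WT, 38.7% had both KO pools below both WT pools, and the median difference was -0.08. That brightness range was chosen after the values were seen. In 15 of the 21 hepatocyte genes the difference lay below the median of genes of like brightness. Among the 9 genes made by other cells, 5 had both KO pools above both WT pools (Plat, Plaur, Tfpi, F13a1 and F8) and 0 had both below, while 22.9% of the dimmer tested genes had both KO pools above. With arrays centred on their medians 3 of the 9 did, as did 2262 of all 12458 tested genes.

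**Figure D2:**
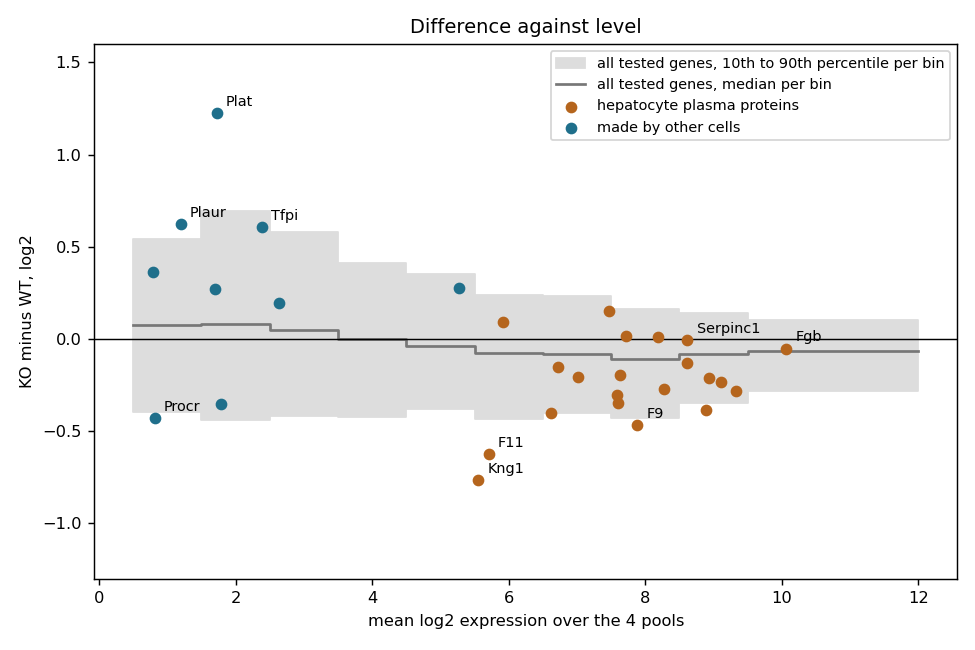
KO minus WT (vertical axis, log2) against the mean log2 expression over the 4 pools (horizontal axis), with the 30 genes as points over the median and the 10th to 90th percentile of all tested genes in bins of expression. F9, F11, Kng1, Hrg and Procr lie below the band and Plat and Plaur above it, and the other 23 lie inside.

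Markers of the cell types that make these proteins were read in the same pools. For 13 measured hepatocyte markers, among them albumin and transthyretin, 9 were below WT and the median difference was -0.11, while their mean signal ran from 9.31 to 9.33 in WT and from 9.15 to 9.22 in KO. For 10 endothelial markers the median difference was 0.06 and the mean signal ran from 4.44 to 4.51 in WT and from 4.44 to 4.67 in KO. For 11 stellate cell and fibroblast markers, 9 were above WT, the median was 0.68 and the mean signal ran from 4.17 to 4.32 in WT and from 4.83 to 4.91 in KO. For 12 macrophage markers, 10 were above WT, the median was 0.36 and the mean signal ran from 3.51 to 3.67 in WT and from 4.13 to 4.14 in KO. For 7 of 9 bile duct markers that were measured, 6 were above WT and the median was 0.71. Their part in the differences below was not tested. In these bulk samples fewer cells of a type and less RNA per cell cannot be told apart.

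**Figure D3:**
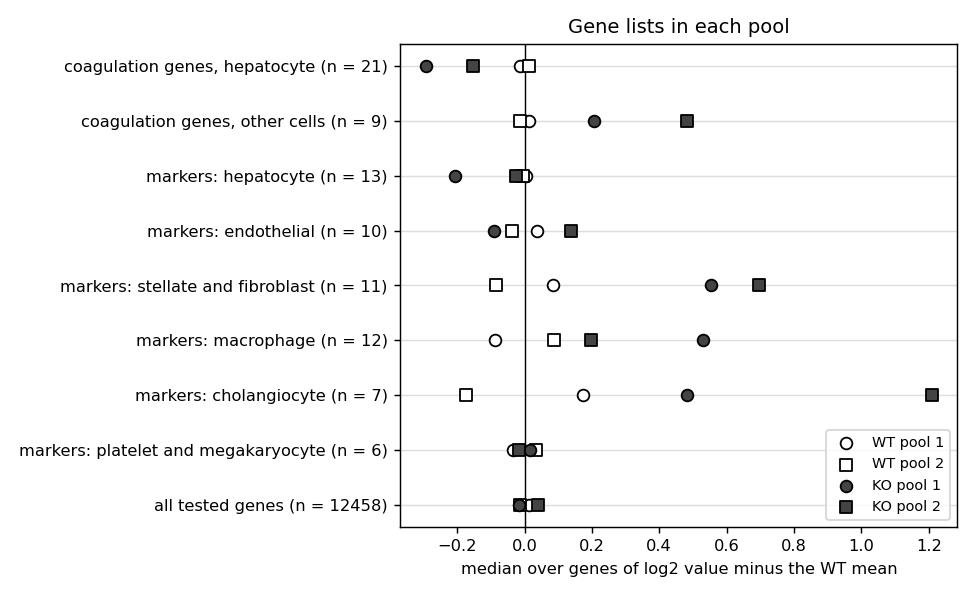
For each gene list (rows), the median over its genes of the log2 value minus the gene's WT mean (horizontal axis), in each of the 4 pools. The hepatocyte coagulation genes lie at -0.29 in KO pool 1 and -0.15 in KO pool 2, and the coagulation genes of other cells at 0.21 and 0.48.

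The regions just upstream of 5 hepatocyte members are shown here because they hold the letters TTGCNNAA, a core of the sites bound by C/EBP factors, which are transcription factors of hepatocytes. They were chosen after their letters and values were seen. The RefSeq promoter table (build GRCm38.p6) holds 19 of the 23 listed hepatocyte members, and the match, on either strand and within 250 bases before the gene's start, was present in 6 of them (31.6%): F11, F9, Hrg, Fga, Fgb and Klkb1. Of the 6 members made by other cells that the table holds, 2 had it as well (Plaur and Procr). Among all 32851 promoters of the table, 9.56% hold it. In the lines below, each read 5′ to 3′ toward the gene, the match is in capitals. The regions are chr8:45262032-45262281 (minus strand) for F11, chrX:59999214-59999463 (plus) for F9, chr16:22950822-22951071 (plus) for Hrg, chr3:83025903-83026152 (plus) for Fga and chr3:83049864-83050113 (minus) for Fgb.
F11: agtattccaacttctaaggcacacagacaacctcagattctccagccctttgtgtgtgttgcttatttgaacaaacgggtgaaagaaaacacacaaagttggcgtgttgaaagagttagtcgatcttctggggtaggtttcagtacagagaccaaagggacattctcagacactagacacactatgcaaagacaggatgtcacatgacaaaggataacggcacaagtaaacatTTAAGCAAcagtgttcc
F9: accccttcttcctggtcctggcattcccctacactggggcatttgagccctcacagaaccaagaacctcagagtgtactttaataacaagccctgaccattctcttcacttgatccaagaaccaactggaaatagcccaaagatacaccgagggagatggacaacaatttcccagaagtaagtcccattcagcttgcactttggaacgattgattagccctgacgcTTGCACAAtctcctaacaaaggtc
Hrg: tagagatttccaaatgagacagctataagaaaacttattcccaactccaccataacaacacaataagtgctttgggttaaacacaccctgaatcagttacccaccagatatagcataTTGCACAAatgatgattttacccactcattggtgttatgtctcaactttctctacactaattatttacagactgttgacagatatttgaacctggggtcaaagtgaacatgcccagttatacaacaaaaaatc
Fga: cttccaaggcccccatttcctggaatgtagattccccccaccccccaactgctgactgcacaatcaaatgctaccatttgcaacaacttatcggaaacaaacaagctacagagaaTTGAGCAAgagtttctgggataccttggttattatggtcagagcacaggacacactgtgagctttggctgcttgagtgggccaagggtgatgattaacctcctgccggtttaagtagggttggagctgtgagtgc
Fgb: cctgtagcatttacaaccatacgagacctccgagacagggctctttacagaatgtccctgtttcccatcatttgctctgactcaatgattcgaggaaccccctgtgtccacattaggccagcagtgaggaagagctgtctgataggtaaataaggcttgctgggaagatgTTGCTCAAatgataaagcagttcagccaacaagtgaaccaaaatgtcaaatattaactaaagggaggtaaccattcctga
The match ends 10 bases before the start of F11 and 17 before that of F9, and 126, 128 and 73 bases before those of Hrg, Fga and Fgb. The KO minus WT differences of these genes were -0.62, -0.47, -0.39, -0.13 and -0.05 in the same order. The 5 shown genes thus ran from the second lowest difference of the list to one near 0. Plaur and Procr, which also hold the match, were at 0.62 and -0.43, so genes with the match lay on both sides of WT. The letters CAAAGNTCA, a form of the HNF4 site, were found on either strand in F7 and Fga (1.32% of all promoters), and GTTAATNAT, a core of the HNF1 site, in F13b and Fga (0.737%). Such a match is a description of letters and not of binding.

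Among the clotting factors, 7 of 12 were below WT and 5 above, with a median of -0.18, or -0.099 with quantile normalization. In 6 of the 12 both KO pools lay below both WT pools, and in 2 above. Over all tested genes these shares were 19.5% and 22.2%. Among genes at least as bright as the dimmest hepatocyte member, 38.7% had both KO pools below. The contact pathway genes F11, Kng1 and F12 were not tested against each other. F11, the precursor of a protease that activates factor IX, was at 5.94 and 6.09 in the WT pools and at 5.47 and 5.32 in the KO pools. The groups did not overlap, and each pair of pools lay close together. The difference was -0.62 ± 0.20 (SE) by limma (adjusted p = 0.394), which is 1.54-fold lower and the second lowest of the 30 genes. It lay between -0.70 and -0.55 with quantile normalization, with arrays centred on their medians or without 1 pool.

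Kng1, which encodes kininogen, the carrier of prekallikrein and factor XI and the source of bradykinin, was at 6.31 and 5.57 in WT and at 5.23 and 5.12 in KO. The groups did not overlap, but the WT pools stood further apart than the gap between the groups. The value in WT pool 1 was shared by 8 probe sets of that array and the one in KO pool 2 by 5. The difference was -0.77 ± 0.29 (SE; limma, adjusted p = 0.463), and it was -0.40 without WT pool 1 and -1.14 without WT pool 2. Mice carry a closely related kininogen gene, Kng2, that lies between Hrg and Kng1 in the RefSeq table, and their probes may measure each other. Kng2 was at 8.01 and 7.88 in WT and 7.81 and 7.82 in KO, a difference of -0.13 ± 0.19. F12, whose product starts the contact pathway, was at 7.82 and 7.60 in WT and 7.73 and 7.72 in KO, with a 95% interval of the difference from -0.47 to 0.51.

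Factor VII, the partner of tissue factor, and factor X, the next protease of the cascade, are encoded by neighbouring genes, with Proz next in the row. F7 was at 6.97 and 6.67 in WT and at 6.36 and 6.49 in KO, so that the groups did not overlap, and the difference was -0.40 ± 0.21 (SE; limma, adjusted p = 0.594), or -0.25 without WT pool 1. F10 was at 7.01 and 7.22 in WT and at 6.91 and 6.92 in KO, a difference of -0.21 ± 0.20, or -0.10 without WT pool 2. Proz was at -0.35 ± 0.21, or -0.17 without KO pool 1, so that all 3 neighbours lay below WT with no overlap of the pools. F3, tissue factor itself, was at 2.56 and 2.53 in WT and 2.41 and 3.06 in KO. One KO pool lay below both WT pools and the other above, and the sign of F3 turned without KO pool 2 (-0.13), whose value was shared by 33 probe sets of that array.

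F9, the vitamin K-dependent protease that is lacking in haemophilia B, was at 8.08 and 8.16 in WT and at 7.38 and 7.92 in KO. Both KO pools lay below WT, KO pool 1 by far the most, and the difference was -0.47 ± 0.25, or -0.19 without KO pool 1. F8, the cofactor of factor IX and a product of endothelium, was at 5.12 and 5.14 in WT and at 5.20 and 5.61 in KO. Its difference was 0.28 ± 0.22, or 0.07 without KO pool 2, so the 2 partners had opposite signs. F5, the cofactor of factor X, was at -0.21 ± 0.19 with no overlap of the pools. F2, prothrombin, was at 0.01 ± 0.19, with a 95% interval from -0.47 to 0.49.

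Factor XIII, which crosslinks fibrin, is built from an A chain of macrophages and platelets and a B chain of hepatocytes. F13a1 was at 0.71 and 0.52 in WT and at 0.92 and 1.03 in KO, a difference of 0.36 ± 0.20 near the dim end of the scale, where differences may be compressed. F13b was at 6.84 and 6.77 in WT and at 6.47 and 6.83 in KO, a difference of -0.15 ± 0.21 that turned to 0.02 without KO pool 1. Both KO pools of F13a1 lay above both WT pools, as in 22.9% of the dimmer tested genes, while the pools of F13b overlapped. Platelet and megakaryocyte markers, of which 6 of 8 were measured and 4 tested, had a median difference of -0.08, and their mean signal ran from 0.80 to 0.87 in WT and from 0.67 to 0.87 in KO.

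Fibrinogen is made of 3 chains from a cluster of 3 adjacent genes, and all 3 lay slightly below WT. Fgg, the gamma chain, was at 9.22 and 9.24 in WT and at 8.94 and 9.06 in KO. Its pools did not overlap, and the difference was -0.23 ± 0.19 (SE; limma, adjusted p = 0.724). Fga, the alpha chain, was at 8.69 and 8.67 in WT and at 8.41 and 8.69 in KO, a difference of -0.13 ± 0.20 (adjusted p = 0.872), with KO pool 2 at the WT level. Fgb, the beta chain, was at 10.13 and 10.06 in WT and at 10.03 and 10.05 in KO, a difference of -0.05 ± 0.19 (adjusted p = 0.950), and it turned to 0.042 with quantile normalization. The median over the 3 chains was -0.13, or -0.27 without KO pool 2 and -0.041 without KO pool 1. The 95% interval of the beta chain ran from -0.52 to 0.41.

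Among the anticoagulants, 6 of 9 were below WT and 3 above, with a median of -0.27 that took values from -0.10 to 0.02 when WT pool 2, KO pool 1 or KO pool 2 was left out. The protein C system has a plasma protease, its cofactor and 2 endothelial receptors. Proc, protein C, was at 7.71 and 7.77 in WT and at 7.28 and 7.59 in KO, below WT in both pools, with a difference of -0.30 ± 0.21, or -0.15 without KO pool 1. Pros1, its cofactor protein S, was at 5.77 and 5.97 in WT and at 6.02 and 5.91 in KO, where the groups overlap, with a difference of 0.09 ± 0.20 that was -0.0079 without WT pool 1. Protease and cofactor thus had opposite signs, neither past the threshold.

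Procr, the endothelial protein C receptor, was at 1.21 and 0.85 in WT and at 0.93 and 0.27 in KO. The groups overlapped, the difference was -0.43 ± 0.29 (SE; limma, adjusted p = 0.678), and the value in KO pool 1 was the same shared one as that of Nrg4. Leaving out KO pool 2 gave a difference of -0.096, leaving out KO pool 1 one of -0.76, and leaving out WT pool 1 one of -0.25. Thbd, thrombomodulin, which turns thrombin toward protein C, was at 1.45 and 2.48 in WT and at 1.80 and 1.43 in KO. WT pool 2 stood above the other 3 pools, and without it the difference of -0.35 ± 0.38 was 0.16. Both receptors are thus genes of other cells that were on the lower side, against a median of 0.06 for the endothelial markers.

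Tfpi, the inhibitor of tissue factor and factor VII, was at 2.55 and 1.63 in WT and at 2.60 and 2.79 in KO. The KO pools lay just above WT pool 1 and far above WT pool 2. The difference of 0.61 ± 0.33 (SE; limma, adjusted p = 0.608) was 0.15 without WT pool 2 and 1.06 without WT pool 1. Proz, protein Z, is the plasma cofactor of the inhibitor that Serpina10 encodes. Proz was at 7.80 and 7.74 in WT and at 7.25 and 7.60 in KO (limma, adjusted p = 0.644). Serpina10 was at 7.37 and 7.41 in WT and at 7.65 and 7.45 in KO, a difference of 0.15 ± 0.20 in the other direction, or 0.055 without KO pool 1 and 0.25 without KO pool 2. It was the 1 hepatocyte member with both KO pools above both WT pools.

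The 2 thrombin inhibitors include the gene with the smallest difference of the list. Serpinc1, antithrombin, was at 8.60 and 8.64 in WT and at 8.60 and 8.63 in KO, with a 95% interval of the difference from -0.47 to 0.46. Serpind1, heparin cofactor II, was at 8.42 and 8.41 in WT and at 7.89 and 8.41 in KO. Its difference of -0.27 ± 0.24 came from KO pool 1 and was -0.01 without it.

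**Figure D4:**
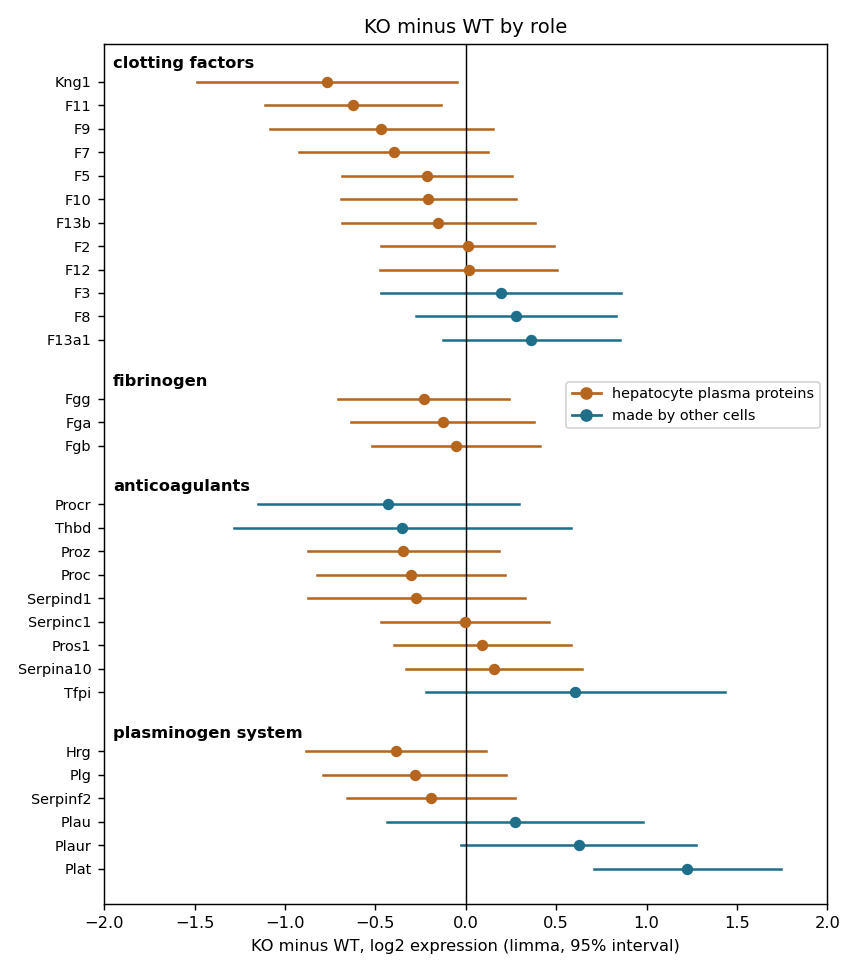
KO minus WT (horizontal axis, log2) with limma's 95% interval for each of the 30 genes, grouped by role and coloured by where the product is made. The intervals of Plat, F11 and Kng1 exclude 0 and those of the other 27 genes include it, before any adjustment for the number of genes tested.

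The plasminogen system held the highest difference of the list and had genes on both sides, 3 of 6 above WT and 3 below, with a median of 0.04 that ran from -0.16 (WT pool 1 left out) to 0.23 (WT pool 2 left out). The 3 genes above were the activators and the urokinase receptor, and the 3 below were hepatocyte products. Plat, tissue plasminogen activator, was at 1.21 and 1.01 in WT and at 2.45 and 2.22 in KO. The gap between the groups was 1.00, larger than the distance between the pools of either genotype. The difference of 1.22 ± 0.21 (SE) by limma (adjusted p = 0.233) ranked 68th by p among all tested genes. It lay between 1.11 and 1.34 with quantile normalization, with arrays centred on their medians or without 1 pool. The WT mean lay within 0.57 of the median of all probe sets, so no fold is given.

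Plaur, the urokinase receptor of macrophages and other migrating cells, was at 0.90 and 0.87 in WT and at 1.20 and 1.82 in KO. Both KO pools lay above WT, KO pool 2 the most, and the difference of 0.62 ± 0.26 (SE; limma, adjusted p = 0.503) was 0.31 without KO pool 2 and 0.94 without KO pool 1. Plau, urokinase, was at 1.20 and 1.91 in WT and at 1.76 and 1.89 in KO. WT pool 1 stood below the other 3 pools, and without it the difference of 0.27 ± 0.28 was -0.09. Of the 2 activators, Plat had both KO pools above both WT pools, while the pools of Plau overlapped.

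Hrg, histidine-rich glycoprotein, a plasma protein that binds plasminogen and heparin, was at 9.14 and 9.02 in WT and at 8.59 and 8.80 in KO. The groups did not overlap, and the difference was -0.39 ± 0.20 (SE; limma, adjusted p = 0.587). Plg, plasminogen, was at 9.43 and 9.52 in WT and at 9.06 and 9.32 in KO, a difference of -0.28 ± 0.20 with no overlap, or -0.15 without KO pool 1. Serpinf2, the plasmin inhibitor alpha-2-antiplasmin, was at 7.68 and 7.76 in WT and at 7.54 and 7.52 in KO, a difference of -0.19 ± 0.19, also with no overlap, or -0.099 with quantile normalization. Plasmin's precursor and its main inhibitor thus lay on the same side.

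A modification shared by 7 of the hepatocyte members, which the choice of genes did not use, is the vitamin K-dependent carboxylation of F2, F7, F9, F10, Proc, Pros1 and Proz. This grouping was made after the values were seen. Their median difference was -0.30, with 5 below WT, each with both KO pools below both WT pools, and 2 above (F2 and Pros1). The other 14 hepatocyte members had a median of -0.20, with 12 below, 9 of them with both KO pools below both WT pools. That was so in 38.7% of the genes at least as bright as the dimmest hepatocyte member. Without KO pool 1 the medians were -0.17 and -0.097, and without KO pool 2 they were -0.46 and -0.28. With quantile normalization they were -0.22 and -0.12. The 2 medians were not tested against each other. The carboxylase Ggcx was at -0.14 ± 0.19, the vitamin K reductase Vkorc1 at -0.28 ± 0.19 and its relative Vkorc1l1 at -0.46 ± 0.22. In each of these enzymes both KO pools lay below both WT pools, as in 19.5% of all tested genes, and none was called.

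Of 44 other genes of the pathway, covering plasmin inhibitors, vitamin K enzymes, receptors for thrombin and plasminogen, transport proteins and platelet genes, 38 were measured and 32 passed the filter on dim signal. None was called (0 of 32 by limma), and 5 were on the higher side and 1 on the lower at an unadjusted p under 0.05. Those 5 include Gp9, which passed the filter on dim signal only through its KO values. Over all tested genes, 6.37% were on the higher side and 3.92% on the lower at that level. Gas6, a vitamin K-dependent ligand of receptor kinases and a relative of protein S, was at 5.08 and 5.02 in WT and at 6.43 and 6.34 in KO. Its pools did not overlap, and the difference was 1.33 ± 0.19 (SE; limma, adjusted p = 0.181), against 0.09 for Pros1. Anxa2, which with S100a10 forms a cell surface receptor for Plat and plasminogen, was at 4.08 and 4.37 in WT and at 5.35 and 5.27 in KO, a difference of 1.09 ± 0.21 (adjusted p = 0.266). S100a10 was at 0.20 ± 0.19 and the plasminogen receptor Plgrkt at 0.41 ± 0.19.

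The thrombin receptor F2r was at 5.61 and 5.70 in WT and at 6.23 and 6.43 in KO, a difference of 0.68 ± 0.20 (SE; limma, adjusted p = 0.368) with no overlap of the pools. Gp9, a platelet glycoprotein, was at 0.29 and 0.47 in WT and at 0.86 and 1.13 in KO, a difference of 0.61 ± 0.21 (limma, adjusted p = 0.426). Its WT level lay below the median of all probe sets, so it passed the filter on dim signal only through its KO values. Ppbp, another platelet gene, was at -0.75 ± 0.28, so platelet genes took both signs. Lman1, which with Mcfd2 carries factors V and VIII out of the endoplasmic reticulum, was at 7.42 and 7.44 in WT and at 7.08 and 7.16 in KO. Its pools did not overlap, and the difference was -0.31 ± 0.19. Mcfd2 was at 0.14 ± 0.25, with overlapping pools and a value in WT pool 1 that 14 probe sets of that array shared.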

How the data were processed

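Liver RNA pools of 2 WT and 2 KO groups of mice were measured on arrays from 400 ng of RNA each. The deposited table holds log2 expression for 41345 probe sets, and per the submitters' processing notes the authors used oligo, RMA and limma. Versions, order of steps, genome build and annotation are not given there. Array medians ran from 0.52 to 0.64, so the zero point of the log2 scale is unknown, while values were not centred per gene. The platform annotation gave the gene names. Of each gene's probe sets with 1 symbol, the one with the highest mean was kept. Genes whose mean reached the median over the whole table (0.54) were tested, 12458 in all.

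Genotypes were compared with limma 3.58.1 under R 4.3.3 (functions lmFit and eBayes, 2 residual and 3.67 prior degrees of freedom, statmod 1.5.0 for the robust option), fitted over all tested genes, with Benjamini-Hochberg adjustment and a threshold of 0.05. An exact permutation of 2 pools against 2 cannot go below p = 0.333 and was not used. Groups of genes are described by counts and medians, with no test. The procedure was run on data simulated from its own fitted model, with differences larger than those of most members put in. That run does not vouch for smaller differences. The members, the gene lists and the tests were chosen with earlier results of these data known. Named with full values were the 3 members of each role group with the smallest p and the 4 other pathway genes with the smallest p, and further genes with shorter values were chosen after they were seen. Promoter letters come from RefSeq, build GRCm38.p6. The Entrez identifiers of all 30 members matched the RefSeq gene table with the same symbol. Scan dates and slides were not used here, and no batch was tested.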

Additional observations from a re-analysis of the deposited data

How the results depend on the processing

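No member was called by limma under any of the 12 alternatives, and 17 of the 30 members kept their sign in all of them. Changes of filter, variance model, probe set averaging or replicate block cannot alter a member's difference. Only quantile normalization, centring of arrays and the fits without 1 pool could turn a sign. F13a1, Plaur and Procr were not tested under the stricter filter and kept their sign in the others. In 23 members the difference moved by over 1.5 times, or turned, without at least 1 pool, in 11 with quantile normalization and in 5 with arrays centred on their medians. With a variance that follows intensity, 49 genes of the whole table were called as higher and 87 as lower, and 10 members were on the lower side at an unadjusted p under 0.05 in place of 2. In that fit 5.80% of all tested genes, and 17.8% of the 1782 genes at least as bright as the dimmest hepatocyte member, were on the lower side at that level, against 3.92% and 6.06% before. In the fits without 1 pool, the lone pool of a genotype is assumed to vary like the other pair. This limits what the p-values of those fits can show. With no filter on dim genes 2 members were on the higher side at an unadjusted p under 0.05, as were 4.77% of all genes in that fit. With the pool number as a replicate block, 0 genes were called as higher and 2 as lower, and no member's call was altered. Across genes, deviations from the group means in pools of the same number had a correlation of -0.04. With 2 pools per genotype this cannot settle whether the pool numbers pair the samples.

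The median over all members was -0.083 with quantile normalization. That of the clotting factors was -0.10 with quantile normalization. That of the anticoagulants was -0.20 with quantile normalization, -0.32 with arrays centred on their medians and -0.14 with the stricter filter (1 above the median). That of the plasminogen system was -0.0069 with arrays centred and -0.19 with the stricter filter, which left out Plaur. Without 1 pool, the median over all members ran from -0.17 to -0.054, that of the clotting factors from -0.24 to -0.12, fibrinogen from -0.27 to -0.041, the anticoagulants from -0.25 to 0.019, the plasminogen system from -0.16 to 0.23, the hepatocyte proteins from -0.29 to -0.15 and the genes of other cells from 0.21 to 0.48. With quantile normalization 15 of the 21 hepatocyte members were below WT, and 10 had both KO pools below both WT pools. With arrays centred these counts were 19 and 12. Of all tested genes, 49.5% were below WT with quantile normalization and 54.2% with arrays centred. In 20.2% and 21.8% of them, in the same order, both KO pools lay below both WT pools. With arrays centred, 3 of the 9 genes of other cells had both KO pools above both WT pools in place of 5. Of all 12458 tested genes, 2262 did so in place of 2760.

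The sign turned for F2 (-0.036) and F12 (-0.030) with arrays centred, and for Fgb (0.042) and Serpinc1 (0.055) with quantile normalization. Without 1 pool, F2 ran from -0.067 to 0.089, F3 ran from -0.13 to 0.52, F12 ran from -0.095 to 0.13, F13b ran from -0.33 to 0.024, Fga ran from -0.27 to 0.015, Plau ran from -0.085 to 0.63, Pros1 ran from -0.0079 to 0.19, Thbd ran from -0.87 to 0.16 and Serpinc1 from -0.026 to 0.019. For the turned signs and moved medians the cause was not tested. Dim genes such as F13a1, Procr and Plaur lie near the low end of the signal, which limits what can be seen of them.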
